A study of Homo sapiens with 17 samples.

Results

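Granins and the proteins that process and store them were followed across 17 RNA-seq libraries from human squamous cancer cell lines. The set comprised 10 genes (SCG2, SCG3, SCG5, CHGA, CHGB, VGF, PCSK1, PCSK2, CPE and SYP) of the 57820 listed in every table, taken by their symbols. The set was chosen by the levels of SCG2 and CHGB, which were low in cells that had lost SOX2. The values of these 10 genes in the SOX2 knockout, and those of SCG2 and CHGB under e1 repression, are therefore a description and carry no test. Genes outside the set are given with their tests in the knockout, the contrast from which the set was chosen.

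KYSE140, an esophageal squamous cancer line with high SOX2, gave 13 libraries, and SKMES1, a lung squamous cancer line with low SOX2, gave 4. The element e1 is an enhancer downstream of SOX2, the gene of a transcription factor of squamous and neural progenitor cells. In the e1 repression experiment all KYSE140 cells carried the CRISPRi repressor and received either e1 guides 1 and 2 (CRISPRi e1, 2 libraries) or non-targeting guides NC#1 and NC#2 (CRISPRi control, 2 libraries). In the SOX2 knockout all KYSE140 cells carried Cas9, with guides 2, 3 and 4 to the SOX2 coding region (3 libraries) or guides to the control regions AAVS1 and Chr2.2 (2 libraries). For drug treatment, KYSE140 cells received 0.5 µM ARV-771, a degrader of BET proteins, or DMSO, both for 6 h (cultures A and B of each). In SKMES1 cells the activator dCas9-VP64 (CRISPRa) was brought to e1 by guides 1 and 3, against NC#1 and NC#2 (2 libraries each). Cells with guides were selected populations after lentiviral infection, so each library of a group carried a different guide.

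Granins are acidic proteins of the regulated secretory pathway. In neuroendocrine cells and neurons they aggregate in the trans-Golgi and help to form dense-core granules, the vesicles that release peptide hormones on a stimulus. Prohormone convertases cut granins and prohormones at paired basic residues, and carboxypeptidase E trims the new ends. Their transcripts are commonly used as markers of neuroendocrine differentiation.

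SOX2 itself, the targeted gene, was measured first. Its level in TPM (a share of all transcripts, corrected for transcript length) was 379.21 and 364.7 in the CRISPRi controls and 119.61 and 127.56 with the e1 guides. The knockout controls had 396.65 and 427.69 TPM, against 102.53, 125.04 and 220.69 TPM with SOX2 guides 2, 3 and 4. SOX2 transcript was therefore lowered but still present in the knockout libraries, and a transcript level does not measure a coding disruption. DMSO cultures had 236.02 and 223.21 TPM and ARV-771 cultures 9.8 and 10.54 TPM. In SKMES1 the level was 1.68 and 1.53 TPM in controls and 223.8 and 315.75 TPM with e1 guides 1 and 3. By the quasi-likelihood test of edgeR, the log2 fold change of SOX2 was -1.57 for e1 repression, -1.28 for the knockout, -3.77 for ARV-771 and 7.34 for e1 activation (Benjamini-Hochberg adjusted p of 2.6e-12, 0.00024, 1.9e-22 and 0.0045).

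The squamous label of the lines was checked on markers. The 10 squamous genes taken summed to between 10396 and 13831 TPM in KYSE140 control and DMSO libraries and to between 1085 and 3104 TPM in SKMES1. The squamous keratin KRT5 and the desmosome gene DSG3 were nearly absent from SKMES1, at no more than 1.26 and 0.1 TPM, and KRT14 reached 118.44 TPM in control 2 but at most 0.31 TPM in the other 3 libraries. NEUROD1 and INSM1, transcription factors of neuroendocrine cells, stood at most at 0.05 and 1.19 TPM in any library. The adhesion molecule NCAM1 was at most 0.05 TPM in KYSE140 and from 4.72 to 10.34 TPM in SKMES1. The summed squamous markers were higher with e1 guides (15506 to 15838 TPM) and with SOX2 guides (31151 to 37640 TPM). Single genes went both ways, with 3 called as risen and 2 as fallen with e1 guides, and 8 and 1 with SOX2 guides. TP63 fell in both (log2 fold change of -0.62 and -1.22), and PKP1 fell with e1 guides (-0.59). The summed 9 stromal and immune markers found were also higher there (62.7 to 65.1 and 99.4 to 110.8 TPM, against 14.3 to 20.6 TPM in controls and DMSO). Only 2 of these 9 had a mean of at least 1 TPM with either kind of guide. The largest rises were in CD68 (4.84 and 4.14) and COL1A1 (1.29 and 2.17). The part of these shifts in the values below was not tested. In bulk RNA, fewer cells that express a gene and less RNA per cell cannot be told apart. SKMES1 control 2 stood apart from control 1, with counts that differed most of all replicate pairs (chi-square per degree of freedom of 28.8, against 2.19 to 13.4 in the other pairs), and the SKMES1 values without it are 6.03 for SCG2 (log2 fold change, adjusted p of 0.15 in edgeR) and 0.50 for CPE (adjusted p of 0.26).

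A start-site sequence was at hand for 8 of the 10 genes, from RefSeq on GRCh38.p14. Of these 8, the 3 genes CHGA, PCSK1 and VGF hold the letters TGACGTCA, the palindromic cAMP response element, within the 250 bases before a start. The 8 genes had 10 such windows, of which 3 hold the element. PCSK1 had 2 windows, and only the one shown holds it. Of 35116 windows of that length, 1.65% hold these letters. The upstream sequences are shown because these 3 genes share the element but differed in level, as given below. PCSK1 and VGF went in opposite directions in the knockout, and CHGA was too low to be tested. Each is written 5′ to 3′ on the strand of the gene and ends next to the start site, with the element in capitals. CHGA lies at chr14:92922900-92923149 on the plus strand, PCSK1 at chr5:96433249-96433498 and VGF at chr7:101165570-101165819, both on the minus strand.
CHGA: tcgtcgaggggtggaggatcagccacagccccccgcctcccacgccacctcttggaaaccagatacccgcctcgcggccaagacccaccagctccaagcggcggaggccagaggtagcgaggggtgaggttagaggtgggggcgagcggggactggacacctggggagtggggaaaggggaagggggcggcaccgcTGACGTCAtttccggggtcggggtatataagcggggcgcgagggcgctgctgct
PCSK1: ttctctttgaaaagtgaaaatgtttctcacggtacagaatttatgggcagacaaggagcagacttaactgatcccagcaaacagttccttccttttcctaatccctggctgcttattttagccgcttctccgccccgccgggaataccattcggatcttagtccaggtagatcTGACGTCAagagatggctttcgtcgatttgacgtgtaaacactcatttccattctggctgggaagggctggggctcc
VGF: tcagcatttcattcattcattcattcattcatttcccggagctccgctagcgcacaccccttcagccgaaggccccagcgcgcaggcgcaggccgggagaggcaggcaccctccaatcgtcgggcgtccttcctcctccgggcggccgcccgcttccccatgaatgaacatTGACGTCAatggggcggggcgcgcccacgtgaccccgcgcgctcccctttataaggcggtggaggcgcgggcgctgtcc
The element lay 54 to 47 bases upstream of the CHGA start, 77 to 70 bases upstream of the PCSK1 start shown and 79 to 72 bases upstream of the VGF start. The SOX core letters ACAAAG, searched on both strands, occurred in 13.7% of all windows and in 1 of the 10 windows of the 8 genes, that of SCG3. The letters ACAATG (9.29% of all windows) and the AP-1 letters TGANTCA (6.57%) occurred in none of the 10. The start-site sequences of SCG2 and CHGB were not used here.

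SCG2, secretogranin II, is the precursor of the peptide secretoneurin. The gene lies on chromosome 2, 224461658 to 224467079 of GRCh37, on the minus strand. Its level was 136.67 and 143.71 TPM in the CRISPRi controls and 2.68 and 3.68 TPM with e1 guides 1 and 2. The knockout controls had 158.78 and 136.19 TPM, and SOX2 guides 2, 3 and 4 left 0.9, 0.49 and 0.67 TPM. No library with a SOX2 or e1 guide reached the lowest control, and the 5 libraries rested on 41 and 46 expected counts (e1) and on 21, 6 and 11 (SOX2). In log2 terms the change was -5.64 ± 0.10 (SE, n = 2 and 2) under e1 repression and -7.44 ± 0.16 (SE, n = 2 and 3) in the knockout, that is, SCG2 fell by 98.0% and 99.4%. The residual level with e1 guides (2.68 and 3.68 TPM) lay above that with SOX2 guides (0.49 to 0.9 TPM), with SOX2 transcript in overlapping ranges (119.61 to 127.56 and 102.53 to 220.69 TPM). The difference between these groups was not tested.

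In the drug experiment SCG2 started lower. DMSO cultures had 77.84 and 73.08 TPM, below all 4 guide controls of the same line. ARV-771 cultures had 110.45 and 104.78 TPM, without overlap. This gave a log2 fold change of 1.23 ± 0.06 (SE, n = 2 and 2), with a Benjamini-Hochberg adjusted p of 2.0e-15 by the quasi-likelihood test of edgeR. SCG2 rose while SOX2 transcript fell to 9.8 and 10.54 TPM within the same 6 h. The size of the rise depended on the scaling. With TMM (trimmed mean of M values), the median gene of at least 50 counts moved by 0.01 on the log2 scale. With library size alone it moved by -0.45, and on log2(TPM + 1) by -0.62. SCG2 exceeded that median by 1.22, 1.22 and 1.13 under the 3 scalings. Without that correction its log2 fold change was 0.77 on library size (adjusted p of 5.4e-10) and 0.51 on log2(TPM + 1) (limma adjusted p of 0.0016), the latter under the 1.5-fold limit for a call. With all 17 libraries in a single fit the value was 1.31 with an adjusted p of 0.0558, and the call was lost.

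In SKMES1, SCG2 was 0.96 and 0.69 TPM in controls, and 8.89 and 121.83 TPM with e1 guides 1 and 3. Both activated libraries lay above both controls, and they differed from each other more than 10 times. In TPM the library of guide 3 lay just below the KYSE140 guide controls (136.19 to 158.78 TPM). SCG2 had 2976 expected counts with guide 3 and 126 with guide 1. SOX2 was 223.8 TPM with guide 1 and 315.75 TPM with guide 3. A log2 fold change of 6.51 ± 1.51 (SE, n = 2 and 2) was estimated. It did not pass the test over all genes, with an unadjusted p of 0.0060 and a Benjamini-Hochberg adjusted p of 0.18 in edgeR. Without the library of guide 3 the value was 3.6 (adjusted p of 0.29), and without that of guide 1 it was 7.39 (adjusted p of 0.0115), which is a call. DESeq2 also called it, with 6.47 and an adjusted p of 0.0030.

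CHGB, chromogranin B (chromosome 20, 5892156 to 5905999, plus strand), is an abundant matrix protein of dense-core granules. Its level was 112.74 and 109.11 TPM in the CRISPRi controls and 3.24 and 3.3 TPM with the e1 guides. Knockout controls held 100.75 and 110.34 TPM, while SOX2 guides 2, 3 and 4 left 1.86, 2.47 and 3.74 TPM. Groups did not overlap. CHGB changed by -5.04 ± 0.10 on the log2 scale (SE, n = 2 and 2) in e1 repression and by -5.12 ± 0.15 (SE, n = 2 and 3) in the knockout, or 33.0-fold and 34.7-fold lower. Unlike SCG2, the ranges of CHGB with e1 guides and with SOX2 guides overlapped.

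Under ARV-771, CHGB was 130.82 and 133.9 TPM with DMSO and 127.22 and 139.57 TPM with the drug, so the groups overlapped in TPM. The log2 fold change with TMM was 0.74 ± 0.05 (SE, n = 2 and 2), with an adjusted p of 2.3e-12 in edgeR, and CHGB was called as risen. It was 0.28 on library size and 0.01 on log2(TPM + 1), where limma gave an adjusted p of 0.91. Relative to the median gene the value was 0.73, 0.73 and 0.63 under the 3 scalings. In SKMES1, CHGB was 0.98 and 0.31 TPM in controls and 0.78 and 1.36 TPM with e1 guides. The activated libraries overlapped the controls (log2 fold change of 0.75 ± 0.64, SE, n = 2 and 2, adjusted p of 0.65 in edgeR), and none held more than 33 expected counts. CHGB thus stayed near 1 TPM in the SKMES1 libraries in which SCG2 reached 8.89 and 121.83 TPM.

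The levels of SCG2 and CHGB are set against SOX2 in the scatter plot of the 17 libraries. Over the 8 KYSE140 libraries without SOX2 or e1 guides, SCG2 ran from 73.08 to 158.78 TPM (median 123), CHGB from 100.75 to 139.57 TPM (median 120.0) and SOX2 from 9.8 to 427.69 TPM. Over the 5 libraries with such guides, SCG2 ran from 0.49 to 3.68 TPM and CHGB from 1.86 to 3.74 TPM, with SOX2 at 102.53 to 220.69 TPM. SOX2 transcript was thus lower in the ARV-771 libraries than in any library with a SOX2 or e1 guide, and SCG2 and CHGB were above 100 TPM there. The ARV-771 cells were collected at 6 h, and the cells with guides after days of selection. Time and kind of perturbation cannot be told apart.

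**Figure D1:**
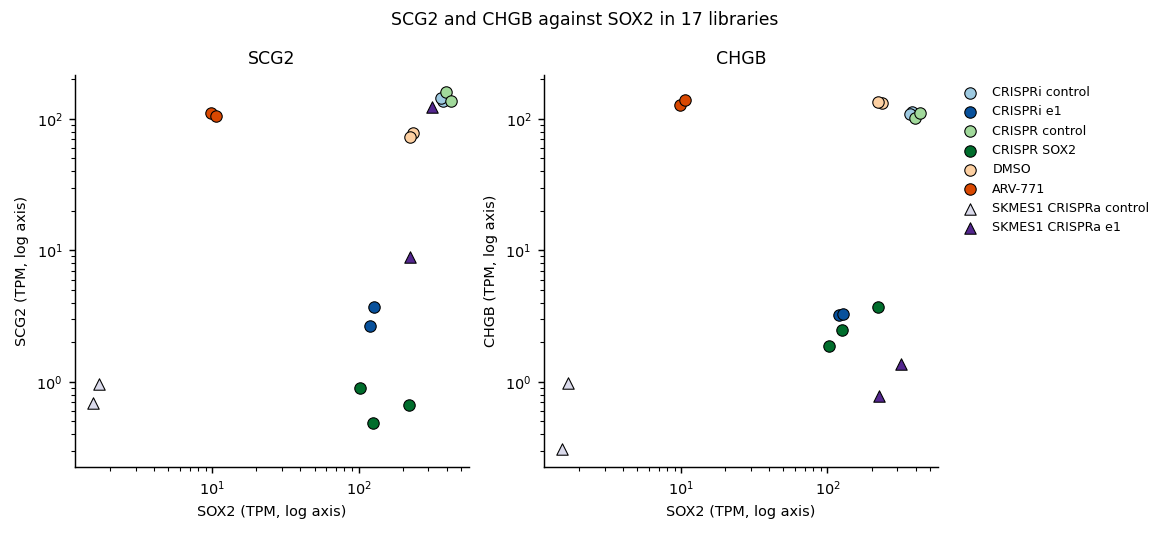
SCG2 (left) and CHGB (right) in TPM against SOX2 in TPM, on log axes, with 1 point per library coloured by group and triangles for SKMES1. The 2 ARV-771 points sit at upper left (SOX2 near 10 TPM, SCG2 and CHGB above 100 TPM), and the 5 points with SOX2 or e1 guides sit below 4 TPM in both panels.

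Of the other granins, CHGA, chromogranin A (chromosome 14, 93389495 to 93401630, plus strand), the granin most used as a clinical marker, was near 0 throughout. It had at most 3 expected counts in any library, 15 over all 17 libraries, and none in 10 of them. Its highest level was 0.42 TPM, in SKMES1 with e1 guide 3. SCG3, secretogranin III (chromosome 15, 51973689 to 52013223, plus strand), which links granin aggregates to the granule membrane, had 5 counts in all and was at 0 in 14 libraries. Both missed the filter on low counts in every comparison and were not tested in these fits. At these depths 3 counts correspond to 0.190 to 0.413 CPM (counts relative to library size), and a lower level was not measurable.

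VGF, a granin-like precursor induced by nerve growth factor (chromosome 7, 100805790 to 100808850, minus strand), went the other way. It was 4.1 and 3.18 TPM in the CRISPRi controls and 21.04 and 24.79 TPM with the e1 guides. The groups did not overlap, and VGF rose with a log2 fold change of 2.69 ± 0.15 (SE, n = 2 and 2) and an adjusted p of 9.2e-10 in edgeR, or 6.45-fold. Knockout controls had 4.56 and 6.17 TPM, and SOX2 guides 2, 3 and 4 gave 9.7, 10.19 and 11.1 TPM, again without overlap (log2 fold change of 1.16 ± 0.16, SE, n = 2 and 3). The e1-guide libraries thus held the highest VGF levels of the series, followed by the SOX2-guide libraries, and the ranges of these groups did not overlap. With ARV-771 it was 1.3 and 1.38 TPM, against 3.01 and 2.63 TPM with DMSO. With TMM the log2 fold change of -0.33 ± 0.27 (SE, n = 2 and 2) did not pass the test (adjusted p of 0.28 in edgeR). Relative to the median gene it was -0.33, -0.33 and -0.08 under the 3 scalings, although on library size (-0.78, adjusted p of 0.012) and on log2(TPM + 1) (-0.71, adjusted p of 0.024 in limma) VGF was called as fallen. In SKMES1 the level was 0.94 and 0.91 TPM in controls and 0.99 and 2.0 TPM with e1 guides, and the change did not pass the test (log2 fold change of 0.72 ± 0.46, SE, n = 2 and 2, adjusted p of 0.53 in edgeR).

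**Figure D2:**
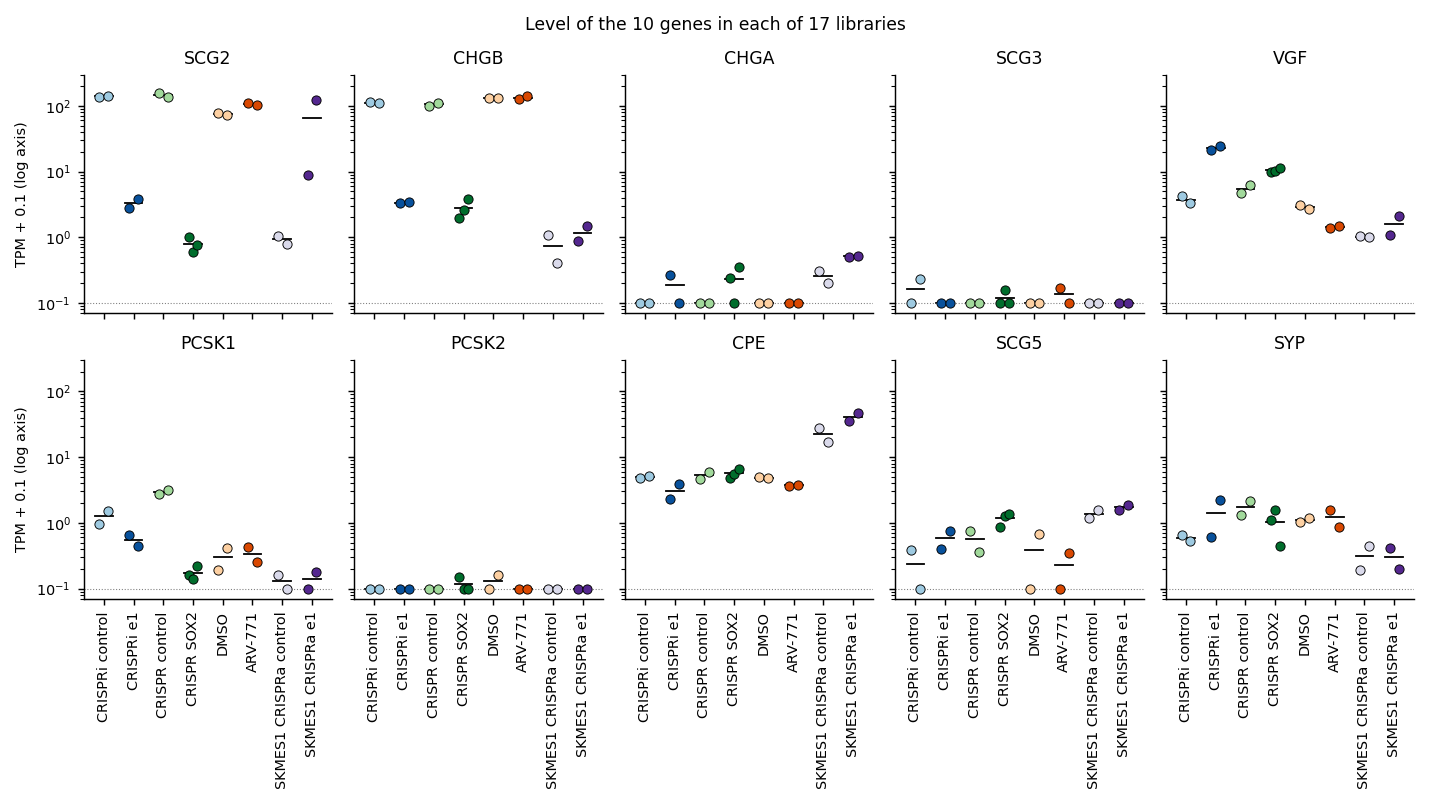
Level of each of the 10 genes in TPM + 0.1 (log axis) in the 8 groups, with 1 point per library and a line at the group mean. The dotted line marks 0 TPM. SCG2 and CHGB drop to below 4 TPM with e1 and SOX2 guides, VGF is highest with e1 guides (21.04 and 24.79 TPM), and CHGA, SCG3 and PCSK2 stay near the dotted line.

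Of the processing enzymes, CPE and PCSK1 were measurable. PCSK1, prohormone convertase 1/3 (chromosome 5, 95726037 to 95769847, minus strand), cuts prohormones in maturing granules. It was 0.86 and 1.44 TPM in the CRISPRi controls and 0.55 and 0.34 TPM with e1 guides, on 8 to 28 expected counts. The groups did not overlap, but the log2 fold change of -0.94 ± 0.51 (SE, n = 2 and 2) did not pass the test (adjusted p of 0.15 in edgeR). In the other experiment, the guides to AAVS1 and Chr2.2 had 2.63 and 3.06 TPM, and SOX2 guides 2, 3 and 4 had 0.06, 0.04 and 0.12 TPM, or 46 and 43 counts against 3, 1 and 4. PCSK1 thus differed by -4.12 ± 0.46 on the log2 scale (SE, n = 2 and 3), or 17.4-fold. The knockout controls held the highest PCSK1 levels of the series, above the CRISPRi controls of the same line. With DMSO or ARV-771 the level was 0.09 to 0.33 TPM, and in SKMES1 at most 0.08 TPM, below the filter on low counts. PCSK2, the convertase 2 of islet and neural cells (chromosome 20, 17206752 to 17465223, plus strand), had 3 counts in all and was at 0 in 15 libraries. Its chaperone SCG5, also called 7B2 (chromosome 15, 32933877 to 32989299, plus strand), had at most 10 counts in any library. SCG5 was 0.77 to 1.26 TPM with SOX2 guides and 0.26 and 0.66 TPM in their controls, and 1.09 to 1.78 TPM in SKMES1. It missed the filter in all 4 comparisons.

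CPE, carboxypeptidase E (chromosome 4, 166282346 to 166419699, plus strand), was the most abundant of the 10 genes in SKMES1 controls. It was 27.77 and 16.88 TPM in these controls and 35.18 and 47.44 TPM with e1 guides 1 and 3. The groups did not overlap, but the log2 fold change of 0.83 ± 0.28 (SE, n = 2 and 2) did not pass the test over all genes (unadjusted p of 0.026, adjusted p of 0.29 in edgeR). Without SKMES1 control 1 it was 1.26 with an adjusted p of 0.015, which is a call. In KYSE140, CPE was 4.79 and 5.12 TPM in the CRISPRi controls and 2.17 and 3.76 TPM with e1 guides. It fell by 1.15 ± 0.26 on the log2 scale (SE, n = 2 and 2, adjusted p of 0.0021 in edgeR), on 75 and 78 counts against 31 and 26. Knockout controls had 4.51 and 5.83 TPM and SOX2-guide libraries 4.77, 5.4 and 6.57 TPM, which overlap. Counts gave a log2 fold change of 0.84 ± 0.21 (SE, n = 2 and 3) there. The deposited transcript length of CPE varied from 1194 to 2421 bases between libraries, so that TPM and counts differ. On log2(TPM + 1) the log2 fold change was -0.62 for e1 repression (limma adjusted p of 0.16) and 0.09 for the knockout, and neither was a call. Under ARV-771, CPE was 4.95 and 4.64 TPM with DMSO and 3.57 and 3.72 TPM with the drug, while the log2 fold change from counts with TMM was 0.44 ± 0.19 (SE, n = 2 and 2, adjusted p of 0.039 in edgeR, under the 1.5-fold limit). Its sign depended on the scaling, with -0.020 on library size and -0.32 on log2(TPM + 1).

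SYP, synaptophysin (chromosome X, 49044268 to 49056677, minus strand), is a membrane protein of small synaptic-like vesicles and a common neuroendocrine marker. It was at most 2.13 TPM in any library and 0.09 to 0.34 TPM in SKMES1. In KYSE140 the groups overlapped in all 3 experiments. Its log2 fold change was -0.76 ± 0.54 (SE, n = 2 and 3) in the knockout and 0.87 ± 0.42 (SE, n = 2 and 2) with ARV-771, where the adjusted p was 0.065 in edgeR. Its counts were not whole in 5 libraries, which marks reads shared with another gene.

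Together, 5, 6, 5 and 4 of the 10 genes passed the filter on low counts in e1 repression, SOX2 knockout, ARV-771 and e1 activation. In e1 repression 1 rose (VGF) and 3 fell (SCG2, CHGB and CPE), beside 20% of the 13792 genes tested that were called at an adjusted p under 0.05 and a fold over 1.5. In the knockout 2 rose (VGF and CPE) and 3 fell (SCG2, CHGB and PCSK1), beside 29.7% of the 13978 genes tested. The knockout counts rest on the contrast that chose the set. Those of e1 repression include SCG2 and CHGB, whose values there are a description only. Nothing is read from the counts of either comparison. With ARV-771, 2 of 5 rose (SCG2 and CHGB), or 40%, beside 52.9% of the 13500 genes tested, of which 21.2% rose and 31.7% fell. In e1 activation 0 of 4 were called by the quasi-likelihood test of edgeR, beside 0.188% of the 14859 genes tested. In that test 2 of the 4 (SCG2 and CPE) had an unadjusted p under 0.05, as did 2109 of the 14859 genes. DESeq2 and the exact test of edgeR each called 1, SCG2.

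**Figure D3:**
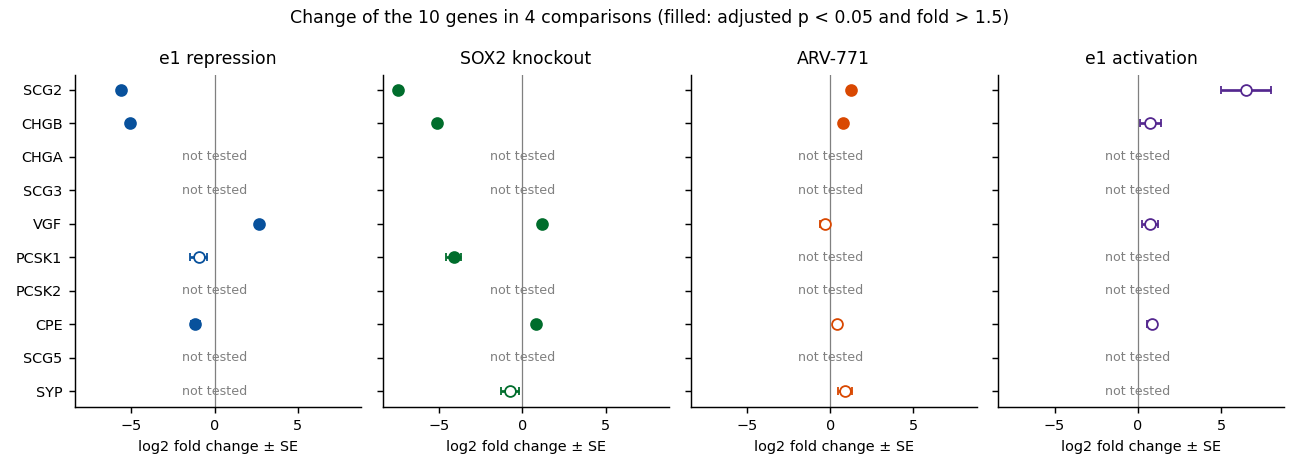
Log2 fold change ± SE of the 10 genes in the 4 comparisons, from the edgeR fits. Filled points passed the threshold, open points did not, and genes below the count filter are marked as not tested. SCG2 lies at -5.64 and -7.44 with e1 and SOX2 guides, at 1.23 with ARV-771 and at 6.51, with a wide error, in e1 activation.

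Summed over the 10 genes, the level was 260 to 273 TPM in the KYSE140 guide controls, 30.7 and 38.7 TPM with e1 guides and 19.3 to 24.1 TPM with SOX2 guides. SCG2 and CHGB made up 93.4% to 96.1% of the sum in these controls and 13.9% to 19.3% in the libraries with e1 or SOX2 guides. In SKMES1 controls the pair made up 6.04% and 4.83%, and with e1 guides 1 and 3 it made up 20.1% and 70.4%.

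The other genes of regulated secretion were described in 5 lists of 123 genes in all: prohormone processing (18), dense-core vesicle exocytosis (31), synaptic vesicle membrane (14), secreted peptide precursors (33) and neuroendocrine regulators and markers (27). Of those tested, 8 of 57 rose and 11 fell in e1 repression, 12 of 59 rose and 8 fell in the knockout, 16 of 55 rose and 13 fell with ARV-771, and 2 of 69 rose and 0 fell in e1 activation. Beside these stand 9.3% risen and 10.7% fallen of all genes in e1 repression, 16.3% and 13.5% in the knockout, 21.2% and 31.7% with ARV-771, and 0.168% and 0.0202% in e1 activation. The split with ARV-771 depended on the scaling, with 2 risen and 15 fallen on library size. The median log2 fold change of the tested list genes was 0.08, 0.20, 0.25 and 0.18 in the 4 comparisons, against medians of 0.00, -0.01, -0.04 and 0.00 over all genes tested.

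Among peptide precursors, NTS, which encodes neurotensin, moved as SCG2 and CHGB did with guides, but less far. It was 233.32 and 186.96 TPM in CRISPRi controls and 26.48 and 26.62 TPM with e1 guides (log2 fold change of -2.97 ± 0.11, SE, n = 2 and 2, adjusted p of 1.1e-11 in edgeR). NTS was 262.56 and 262.1 TPM with guides to AAVS1 and Chr2.2, and 73.25, 52.92 and 68.66 TPM with SOX2 guides 2, 3 and 4 (-1.79 ± 0.11, SE, n = 2 and 3, adjusted p of 1.0e-07 in edgeR). It was at 0 in all 4 SKMES1 libraries. PTHLH, the parathyroid hormone-like hormone of squamous cells, rose with e1 guides (log2 fold change of 1.60), while NMU (neuromedin U) and ADM (adrenomedullin) fell by 1.01 and 0.85. The gastrin gene GAST rose in the knockout (1.10), on 30 counts in controls and 106 with SOX2 guides. Of the 10 precursors tested with ARV-771, 3 rose and 6 fell, with a median log2 fold change of -1.93, beside 21.2% risen and 31.7% fallen of all genes. EDN1, endothelin 1, went from 33.03 and 35.66 TPM with DMSO to 0.56 and 0.54 TPM with the drug (log2 fold change of -5.23, adjusted p of 1.7e-17 in edgeR). ADM went from 113.4 and 96.63 TPM to 2.08 and 2.01 TPM (-4.97), and PTHLH from 124.57 and 124.26 TPM to 9.76 and 14.34 TPM (-2.67). EDN2 had 42 counts over both DMSO libraries and 2 over both ARV-771 libraries. The 2 list genes called in e1 activation were EDN1, from 1.56 and 1.26 to 13.91 and 20.89 TPM (log2 fold change of 3.58, adjusted p of 0.035 in edgeR), and STC1, stanniocalcin 1, from 1.12 and 1.38 to 7.96 and 8.11 TPM (2.62, adjusted p of 0.026).

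In the exocytosis list, 5 of 21 genes rose and 3 fell in e1 repression, and 6 of 19 rose and 1 fell in the knockout. Over all genes, 9.3% rose and 10.7% fell in the former and 16.3% rose and 13.5% fell in the latter. RAB27B, a GTPase that docks secretory vesicles, rose in both, from 0.16 and 0.53 to 2.33 and 1.96 TPM with e1 guides (log2 fold change of 2.82) and from 0.28 and 0.33 to 12.87, 9.79 and 7.24 TPM with SOX2 guides (4.37). SYTL5, a synaptotagmin-like partner of RAB27 proteins, fell in both (-1.64 and -2.44). The plasma membrane SNARE STX1A rose in both (1.48 and 1.07), the complexin CPLX1 rose in e1 repression (0.97) and the calcium sensor SYT7 rose in the knockout (1.77). With ARV-771, 2 of 18 rose and 3 fell, beside 21.2% risen and 31.7% fallen of all genes. SYT5 rose (2.32) on 9 counts against 34.9, while CCDC186, a dense-core vesicle maturation factor, STX1A and RAB3D fell by 1.92, 1.24 and 1.23 on the log2 scale. The adjusted p of the genes named here was at most 0.014 (CPLX1) in edgeR.

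Of the prohormone processing genes, 1 of 14 rose and 2 fell in e1 repression, beside 9.3% risen and 10.7% fallen of all genes. PAM, which amidates peptides, rose (log2 fold change of 0.68), and HID1, a factor of granule biogenesis, and PCSK1N, the inhibitor of PCSK1, fell (-0.95 and -0.65). In the knockout 2 of 15 rose, the carboxypeptidase M gene CPM (1.79) and the cathepsin gene CTSL (1.49), and 1 fell. Over all genes, 16.3% rose and 13.5% fell in the knockout. With ARV-771, 8 of 14 rose and 0 fell with TMM, beside 21.2% risen and 31.7% fallen of all genes. Of the 8, the largest changes among genes whose groups did not overlap in TPM were CTSL (1.03), PAM (0.87), the proton pump subunit ATP6AP1 (0.82) and the carboxypeptidase CPD (0.71). These rises were smaller, absent or reversed in TPM. CPD was 22.3 TPM with DMSO and 19.3 TPM with the drug on average, so its groups stood apart in the opposite direction. On log2(TPM + 1) no gene of the lists was called as risen with ARV-771. In the edgeR fit with TMM, 11 of the 14 had an unadjusted p under 0.05, as did 10330 of the 13500 genes tested.

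Of 5 synaptic vesicle genes tested, SV2A, a vesicle glycoprotein, fell in e1 repression (-0.72) and in the knockout (-1.76). SYNGR3 rose in the knockout (0.82). With TMM, SYNGR2 rose with ARV-771 (0.59), at 1.5006-fold just over the limit for a call. It was not called as risen on log2(TPM + 1), nor was any other gene of the lists. Among regulators, REST, the repressor of neuronal genes, was 10.96 and 10.99 TPM in CRISPRi controls and 12.26 and 12.39 TPM with e1 guides, and did not pass the test there (log2 fold change of 0.07, adjusted p of 0.51 in edgeR). It did not pass in the knockout (0.20, adjusted p of 0.088) nor in e1 activation (0.12, adjusted p of 0.62). With ARV-771, 2 of 8 genes of this list rose with TMM, UCHL1 (1.01) and ENO2 (0.75), and 4 fell. Over all genes, 21.2% rose and 31.7% fell with the drug. REST fell from 10.3 to 2.21 TPM on average (-1.36, adjusted p of 2.5e-11), together with its corepressors RCOR1 (-1.07) and RCOR2 (-1.57) and the homeobox gene PROX1 (-1.47). RCOR2 also fell in e1 repression (-1.06) and the knockout (-1.32), while RCOR1 rose in the knockout (0.87) and was not called in e1 repression (0.08). ENO2, the neuron-specific enolase, rose with ARV-771 with TMM, but its groups there overlapped in TPM. With e1 guides (-0.87) and SOX2 guides (-1.98) ENO2 fell. INSM1 had 16 counts in each knockout control and 0, 1 and 0 counts with SOX2 guides 2, 3 and 4, and it was called (adjusted p of 0.00038 in edgeR). POU2F3, a tuft cell factor, rose in the knockout (4.00), on 1 and 3 counts in controls against 57, 28 and 25.98 with SOX2 guides 2, 3 and 4. NEUROD1 had 0 or 1 count in every library.

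**Figure D4:**
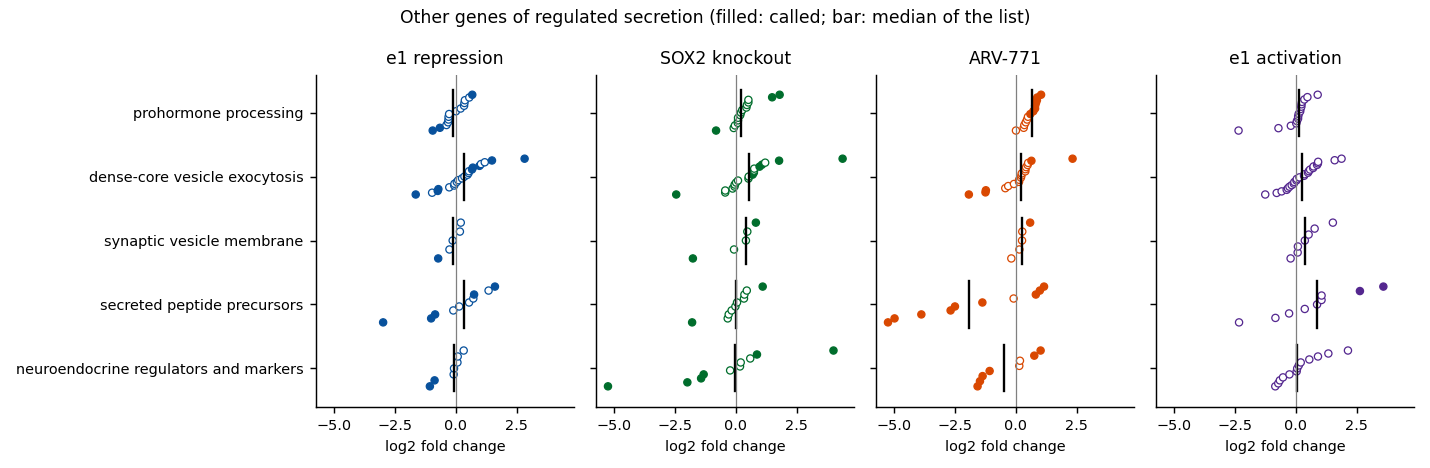
Log2 fold change of the list genes tested in each comparison, 1 point per gene, filled where called, with a bar at the median of the list. Changes within each list go both ways with e1 and SOX2 guides, and the peptide precursors have a median of -1.93 with ARV-771.

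The genes most like SCG2 and CHGB were ranked by Pearson r on log2(TPM + 1) over the 13 KYSE140 libraries, among 13983 genes with a mean of at least 1 TPM. For SCG2 the 5 highest included GLIS3-AS1 (r of 0.9912), COL15A1 (0.989), GSTO1 (0.9832) and COLGALT2 (0.9801). For CHGB they were EPCAM (0.9968), GPNMB (0.9938), GLIS3-AS1 (0.9903), MOBP (0.9895) and METTL7A (0.9893). GLIS3-AS1 is an antisense gene, and its reads could not be told from those of GLIS3 unless strand was used in the counting. CHGB ranked 10 for SCG2 and SCG2 ranked 18 for CHGB, with r of 0.98. Over the 8 KYSE140 libraries without SOX2 or e1 guides the sign was the opposite, with Pearson r of -0.86 and Spearman rho of -0.90, and over all 13 libraries rho was 0.52. The 13 libraries form separate clusters (8 without and 5 with SOX2 or e1 guides), so that r over them mainly reflects the step between them. The 8 also form clusters by experiment. The guide controls had 136.19 to 158.78 TPM of SCG2 and 100.75 to 112.74 TPM of CHGB. DMSO and ARV-771 libraries had 73.08 to 110.45 TPM of SCG2 and 127.22 to 139.57 TPM of CHGB. The negative r thus includes a step between separate experiments. SOX2 itself had r of 0.04 with SCG2 and -0.01 with CHGB, while Spearman rho over the same 13 libraries was 0.55 and 0.13. VGF stood near the other end, with r of -0.79 and -0.87. The basement membrane collagen COL15A1 was 92.22 to 99.66 TPM in CRISPRi controls and 1.48 to 1.73 TPM with e1 guides. GSTO1 changed much less, with 311.99 and 316.6 TPM in CRISPRi controls and 193.48 and 203.77 TPM with e1 guides, since r does not weigh the size of a change. GPNMB, a glycoprotein of lysosomes and the cell surface, was 1385 to 1394 TPM in CRISPRi controls and 207.61 to 237.17 TPM with e1 guides.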

How the data were processed

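Poly-A RNA was sequenced from 13 KYSE140 and 4 SKMES1 libraries. Bowtie2 alignment to hg19 and RSEM quantification of GENCODE genes were done by the authors. Versions and the strand setting of RSEM are not given in the sources used here. The deposited tables hold an expected count per gene, estimated by RSEM and not normalized between libraries. They also hold TPM, which the authors' RSEM run corrected for an effective length estimated in each library. FPKM was not used here. In each library 7.41% to 10.0% of genes had an expected count more than 0.005 from a whole number, because reads were shared with other genes. The total expected count per library was 7260730 to 15781463, and statements on depth cover counting error only. Replicates were different guides, or cultures A and B. Where nothing tells separate cultures, p-values measure only the spread between these samples, which may be technical. Gene positions were taken from GENCODE v44 on GRCh37, and start-site sequences from RefSeq on GRCh38.p14.

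Groups came from the sample labels. After rounding to integers, expected counts entered edgeR 4.0.16 (R 4.3.3): TMM scaling, filterByExpr (minimum count 10, minimum total 15), the quasi-likelihood test, only the 2 groups compared, and Benjamini-Hochberg adjustment over all genes tested. A call required both an adjusted p below 0.05 and a 1.5-fold change. Alternatives were the exact test, DESeq2 1.42.0, other scaling factors, no filter, no fold limit, all 17 libraries in a single fit, limma 3.58.1 on log2(TPM + 1) and log2(TPM + 0.1) where the mean reached 1 TPM, each library left out and a replicate block. The test was tried on simulated counts beforehand. The genes and lists were chosen with earlier results of these data known. Named were all 10 genes, SOX2, REST, NEUROD1 and INSM1, up to 4 called genes per list and comparison with the largest change and no overlap in TPM, and the 5 genes most like SCG2 and CHGB. Other genes named from the lists were chosen after their values were seen. PECAM1 of the stromal list was not used here, and CCDC186 was matched by its Ensembl identifier. Some genes that this rule names are not reported here.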

Additional observations from a re-analysis of the deposited data

How the results depend on the processing

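The 4, 5, 2 and 0 genes of the set called in e1 repression, SOX2 knockout, ARV-771 and e1 activation were recomputed under every alternative. In e1 repression and the knockout no alternative moved the count by more than 1.5 times. With ARV-771 the count was 1 with all libraries in a single fit and 1 on log2(TPM + 1) and log2(TPM + 0.1), where VGF fell and SCG2 and CHGB were not called. The log2 fold change of CPE with ARV-771 turned from 0.44 to -0.020 on library size, -0.32 on log2(TPM + 1) and -0.39 on log2(TPM + 0.1). In e1 activation 1 gene was called by the exact test, 1 by DESeq2, 2 without the filter and 2 with all libraries in a single fit, and leaving out each library gave 0 to 1. The lists of other secretion genes (19, 20, 29 and 2 called) came to 32 in e1 repression and 32 in the knockout with no minimum fold change. With ARV-771 they came to 17 on library size (2 risen, 15 fallen), 15 on log2(TPM + 1) and 15 on log2(TPM + 0.1), all fallen. In e1 activation they came to 15 with the exact test, 8 with DESeq2, 25 with no filter, 17 with all libraries in a single fit, 0 on log2(TPM + 1), 0 on log2(TPM + 0.1), and 0 to 8 when leaving out each library, with 0 without e1 guide 3, 1 without e1 guide 1, 4 without control 2 and 8 without control 1. Of the 5 genes most like SCG2, 0 were shared by rank correlation, and of those most like CHGB 1 was shared by rank correlation and 3 on log2(TPM + 0.1). The cause of these shifts was not tested. Numbers or letters did not pair the libraries: deviations of same-numbered libraries correlated at 0.016 over 11145 genes in e1 repression and -0.026 over 10855 genes with ARV-771. With the replicate block the counts of called genes of the set were 4 and 2, as without it. Depth limits CHGA, SCG3, SCG5 and PCSK2, which missed the count filter in all 4 comparisons.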
